A study of Caenorhabditis elegans with 12 samples.

Results

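mtl-1, mtl-2, ftn-1, ftn-2 and cdr-1 are 5 metal-handling genes of Caenorhabditis elegans: a pair of metallothioneins, a pair of ferritins and a cadmium-responsive gene. They were picked by sequence name (K11G9.6, T08G5.10, C54F6.14, D1037.3 and F35E8.11), with earlier results of these data known. They are 5 of the 22010 genes measured. Poly(A) RNA of whole L4 larvae was sequenced in 4 groups of 3 libraries each, to ask how a mutation of affl-2, an AF4/FMR2 family homologue, alters the transcriptional response to heat. The groups were affl-2(sy975) mutants (strain PS8060) after heat shock, the same mutants without heat shock, wild-type N2 after heat shock, and N2 without heat shock. Heat shock was 30 min at 33 °C in a water bath and the unheated plates stood for 30 min at 20 °C. Each plate held 250 picked L4 animals on OP50 bacteria and was sealed with parafilm, heated or not. The mutant is a single allele in a single strain, and the labels do not describe its lesion.

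Metallothioneins are small cysteine-rich proteins that bind zinc, copper and cadmium. Ferritins assemble into shells that store iron, and cdr-1 encodes a membrane protein that cadmium induces in the intestine. In C. elegans the intestine is the main site where mtl-2, ftn-1 and cdr-1 are transcribed, and the intestinal GATA factor ELT-2 acts on metal-responsive promoters there. mtl-1 is also a known target of the insulin-pathway factor DAF-16. Transcription of ftn-1 rises with iron and is held down by the hypoxia factor HIF-1.

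In these libraries the metallothionein mtl-2 was lower in affl-2 mutants than in N2 at both temperatures, and lower after heat shock than without it in both genotypes. The ferritin ftn-1 was lower in the mutant at both temperatures and passed no test of heat shock. The other ferritin, ftn-2, stood at 0.686 of its N2 level in the mutant at 20 °C and 0.694 at 33 °C, but these differences did not pass the adjusted threshold in the model reported here, and passed when the replicate number was added to it as a block. cdr-1 and mtl-1 passed no test. None of the 5 genes was called higher in any comparison, and none had a heat shock effect that differed between the genotypes beyond error.

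The libraries held 17.97 to 22.66 M estimated counts, and 17743 to 18382 genes were detected in each. affl-2 mRNA itself stood at 16.3 to 19.2 CPM (counts brought to the same sequencing depth) in heated affl-2, 15.2 to 19.6 in unheated affl-2, 25.2 to 30.0 in heated N2 and 20.97 to 24.995 in unheated N2. hsf-1, the gene of the main heat shock factor, lay between 52.7 and 69.5 CPM in all 12 libraries. CPM here are scaled by TMM, a correction for differences in RNA composition, and compare 1 gene across libraries. Without that correction the median log2 change of all genes tested moves by −0.14 for heat shock in the mutant and −0.18 for heat shock in N2, by 0.18 between the genotypes at 20 °C and by 0.22 at 33 °C. Tests are edgeR quasi-likelihood F tests with Benjamini-Hochberg adjustment over 15386 genes, and a gene was called at an adjusted p below 0.05. The labels do not say that the replicates came from separate cultures, so the p-values speak only of the variation among these libraries. In RNA from whole animals, fewer cells of a type and less RNA per cell cannot be told apart.

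The genes are short. On build WBcel235, mtl-1 (WBGene00003473) lies on the minus strand of chromosome V from 6691371 to 6691863, with 2 exons and 75 coded residues. mtl-2 (WBGene00003474) is on the same strand of chromosome V, 14018270 to 14018673, also with 2 exons, and codes for 63 residues. Both metallothionein genes have a first coding exon of 16 nt. The ferritin gene ftn-1 (WBGene00001500) is on the minus strand of chromosome V, 7546468 to 7547579, and ftn-2 (WBGene00001501) on the minus strand of chromosome I, 3680180 to 3680927. Both ferritins code for 170 residues in 3 exons, whose coding parts are 57, 354 and 99 nt in each gene. cdr-1 (WBGene00000412) is on the plus strand of chromosome V, 15921309 to 15922820, with 6 exons and 277 residues. None of the 5 overlaps another annotated gene, so an antisense or overlapping transcript in the annotation does not share their reads.

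mtl-2, the more abundant metallothionein, had 14.4, 12.8 and 15.6 CPM in heated affl-2 and 22.02, 24.58 and 23.43 CPM in unheated affl-2. It had 19.6, 24.4 and 29.6 CPM in heated N2 and 37.4, 34.1 and 47.8 CPM in unheated N2. Heated mutants were lowest and unheated N2 highest, while the unheated mutants lay within the range of heated N2. Between 266 and 971 estimated counts per library stand behind these values.

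Relative to N2, mtl-2 was lower in the mutant, with a log2 change of −0.77 ± 0.16 at 20 °C (SE, adjusted p = 0.00494) and −0.78 ± 0.16 at 33 °C (adjusted p = 0.00415). That is 0.587 and 0.581 of the N2 level, and the highest mutant library lay below the lowest N2 library of the same temperature. After heat shock its log2 change was −0.71 ± 0.16 in affl-2 (adjusted p = 0.00558) and −0.70 ± 0.16 in N2 (adjusted p = 0.00502), again with no overlap between heated and unheated libraries of a genotype. The comparisons share libraries (unheated N2, for example, is the baseline of both the N2 heat shock and the 20 °C genotype comparison), so they are not independent of each other. The heat shock effects of the genotypes, affl-2 minus N2, differed by −0.01 on the log2 scale, with a 95% interval of −0.49 to 0.46. mtl-2 passed in all 4 of these comparisons under each of the 20 alternative settings tried per comparison.

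**Figure D1:**
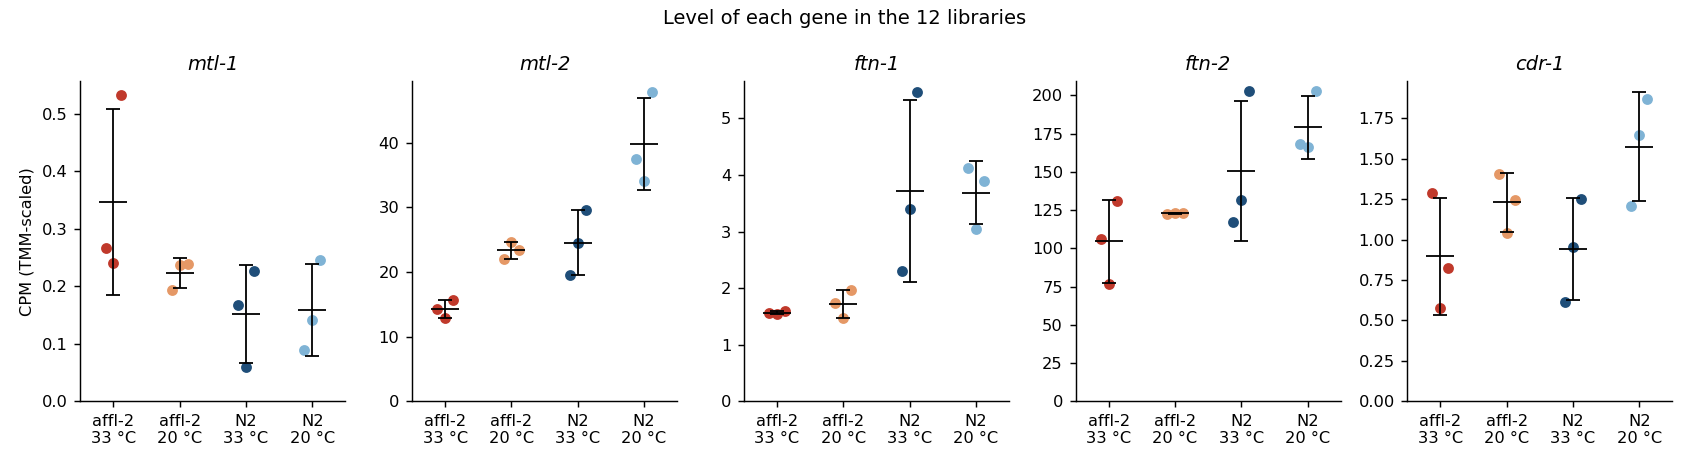
TMM-scaled CPM (vertical axis, linear and from 0) of the 5 genes, 1 panel each, by group. Points are libraries, the long bar is the mean and the whiskers are ± 1 SD (n = 3). mtl-2 is lowest in heated affl-2 and highest in unheated N2, and both affl-2 groups of ftn-1 lie below both N2 groups.

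mtl-1, the other metallothionein, was near the lower limit of these libraries. It had 6, 5 and 11 estimated counts in heated affl-2, 4, 5 and 5 in unheated affl-2, 3, 1 and 4 in heated N2, and 2, 3 and 5 in unheated N2. No library lacked it, and no library exceeded 11 counts. Summed over the 3 libraries this is 22 counts in heated affl-2 (exact Poisson 95% interval 13.8 to 33.3), 14 in unheated affl-2 (7.65 to 23.5), 8 in heated N2 (3.45 to 15.8) and 10 in unheated N2 (4.80 to 18.4). Such intervals cover counting error only. mtl-1 did not pass the filter on low counts, and its tests come from a fit without that filter.

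In CPM mtl-1 reached 0.267, 0.241 and 0.533 in heated affl-2, against 0.168, 0.0598 and 0.227 in heated N2. These groups did not overlap, yet the log2 change of 1.15 had a 95% interval of −0.09 to 2.39 (adjusted p = 0.204). For mtl-1 the log2 change was 0.53 between the genotypes at 20 °C (adjusted p = 0.651), 0.59 after heat shock in the mutant (adjusted p = 0.516) and −0.03 after heat shock in N2 (adjusted p = 1). At this depth no difference of mtl-1 was detectable, and the interval for heat shock in N2, −1.46 to 1.40, does not exclude a change of 2-fold in either direction.

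ftn-1, the ferritin gene of the intestine, had 1.56, 1.54 and 1.60 CPM in heated affl-2 and 1.75, 1.47 and 1.96 CPM in unheated affl-2. It had 2.298, 3.406 and 5.459 CPM in heated N2 and 4.12, 3.05 and 3.89 CPM in unheated N2. All 6 mutant libraries lay below all 6 N2 libraries, and heated N2 was the group with the widest spread. Each library gave 31 to 96 estimated counts.

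ftn-1 was lower in the mutant, with a log2 change of −1.09 ± 0.27 at 20 °C (adjusted p = 0.0161) and −1.24 ± 0.28 at 33 °C (adjusted p = 0.00718). These are 0.469 and 0.422 of the N2 level. Leaving out heated N2 replicate 3, the library at 5.46 CPM, brought the 33 °C difference to −0.84 (adjusted p = 0.0352). At 20 °C the difference missed the threshold when 1 of 3 libraries was left out: unheated N2 replicate 1 (−0.96, adjusted p = 0.0697), unheated N2 replicate 3 (−1.06, adjusted p = 0.0545) or unheated affl-2 replicate 2 (−0.98, adjusted p = 0.0724). Heat shock gave a log2 change of −0.14 in affl-2 (95% interval −0.76 to 0.49, adjusted p = 0.776) and 0.01 in N2 (−0.54 to 0.57, adjusted p = 0.981). The difference between these heat shock effects was −0.15 (−0.99 to 0.68).

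ftn-2, the more widely expressed ferritin, had 106, 76.6 and 131 CPM in heated affl-2 and 123 CPM in each of the 3 unheated affl-2 libraries. It had 117, 132 and 203 CPM in heated N2 and 168, 166 and 203 CPM in unheated N2. The unheated mutants lay below all unheated N2 libraries, while the heated groups overlapped. The SD over the 3 unheated mutant libraries was 0.198 CPM, against 20.7 CPM in unheated N2.

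The log2 change of ftn-2 in the mutant was −0.54 ± 0.21 at 20 °C (95% interval −0.99 to −0.10, adjusted p = 0.0998) and −0.53 ± 0.21 at 33 °C (−0.97 to −0.08, adjusted p = 0.0869). Neither passed, although each interval, which is not adjusted for the number of genes, lay below 0. Both calls depend on the model. With the replicate number of the titles as a block they passed (adjusted p = 0.0265 at 20 °C and 0.0241 at 33 °C), as they did after an exchange of 2 numbers whose labels and tables disagree (0.0243 and 0.0206). At 20 °C the difference also passed when only the compared libraries were fitted (adjusted p = 0.0116), and at 33 °C with DESeq2 (adjusted p = 0.0445). Heat shock gave −0.23 in affl-2 (−0.68 to 0.21, adjusted p = 0.453) and −0.25 in N2 (−0.69 to 0.19, adjusted p = 0.436).

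cdr-1, the cadmium-responsive gene, had 1.29, 0.579 and 0.824 CPM in heated affl-2 and 1.41, 1.04 and 1.24 CPM in unheated affl-2. It had 0.617, 0.956 and 1.25 CPM in heated N2 and 1.21, 1.64 and 1.87 CPM in unheated N2. All groups overlapped, and a library gave 11 to 38 estimated counts. Its log2 changes were −0.06 (affl-2 against N2 at 33 °C, −0.81 to 0.69), −0.35 (the same at 20 °C, −1.01 to 0.31), −0.44 (heat shock in affl-2, −1.15 to 0.26) and −0.74 (heat shock in N2, −1.44 to −0.03). The last had an adjusted p of 0.13, and 0.0463 when libraries were scaled by size alone.

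**Figure D2:**
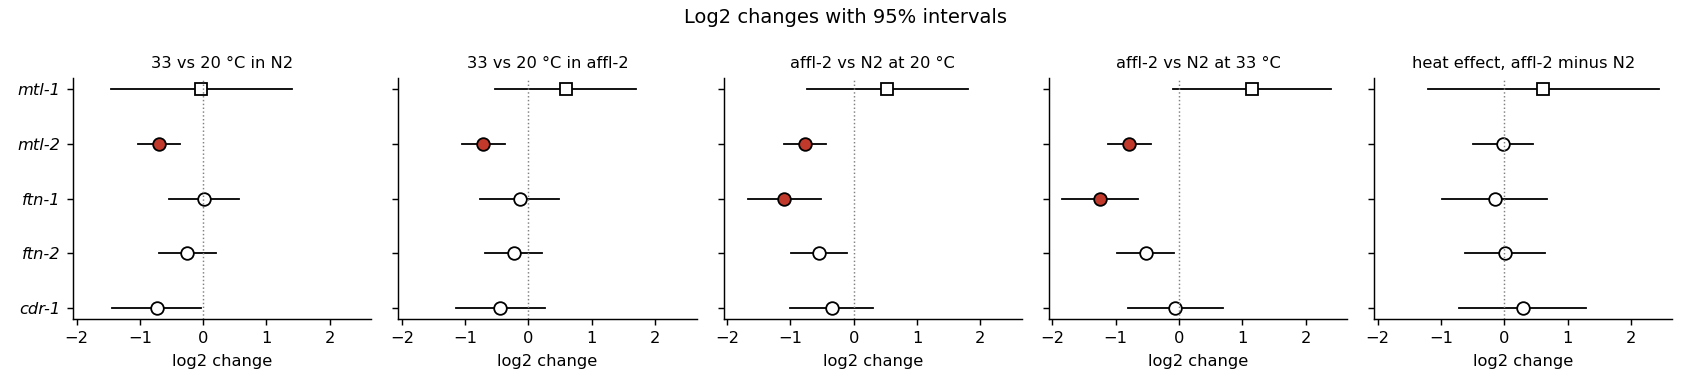
Log2 change (horizontal axis) of the 5 genes with 95% intervals, 1 panel per comparison, and in the last panel the difference of the heat shock effects, affl-2 minus N2. Filled circles passed at an adjusted p below 0.05 and open circles did not. Squares are mtl-1, fitted without the filter on low counts. The passing values run from −0.70 to −1.24, and no interval in the last panel leaves out 0.

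Counted over the genes, 1 of the 5 was called lower after heat shock in affl-2 (mtl-2) and 0 higher, where 10.8% of all genes tested were called lower and 10.6% higher (21.4% in all). In N2 1 of the 5 was called lower (mtl-2) and 0 higher, where 12% of all genes were lower and 9.52% higher (21.5% in all). At 20 °C 2 of the 5, mtl-2 and ftn-1, were called lower in affl-2 than in N2, where 7.29% of all genes were lower and 6.69% higher (14% in all). At 33 °C the same 2 were called lower, where 9.57% of all genes were lower and 10.1% higher (19.7% in all). For the difference between the heat shock effects 0 of the 5 were called, where 0.669% of all genes were lower and 0.0455% higher (0.715% in all). With the replicate block after that exchange, 3 of the 5 were called lower in affl-2 at each temperature. Of all genes, about 13% were then lower at 20 °C (23.4% in either direction) and about 16% at 33 °C (33.5% in either direction). With 5 genes, 1 call stands close to those background shares and says nothing of the genes as a set. None of the 5 reached an unadjusted p below 0.05 in the test of the difference between heat shock effects, the smallest being 0.485, of mtl-1, in the fit without the filter, and DESeq2 called none of them.

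Some libraries were the highest of their group for several of the genes. Heated N2 replicate 3 had the highest CPM of its group for all 5 genes. Heated affl-2 replicate 3 was the highest of its group for mtl-1, mtl-2, ftn-2 and, by a narrow margin, ftn-1 (1.60 against 1.56 CPM). Unheated N2 replicate 3 was so for mtl-1, mtl-2, ftn-2 and cdr-1. Unheated affl-2 replicate 3 was the highest of its group for ftn-1 and, by narrow margins, for ftn-2 and mtl-1. For mtl-1 its replicates 2 and 3 had 5 estimated counts each. All of these carry the replicate number 3. Their deviations from the group mean were correlated over the genes with an average log2 CPM of at least 1. The correlation was 0.51 between heated affl-2 and heated N2, 0.43 between heated and unheated N2, and 0.23 between heated affl-2 and unheated N2. For unheated affl-2 it was 0.45 with heated N2, 0.37 with heated affl-2 and 0.093 with unheated N2. Number 3 was singled out after the values were seen. Between unheated affl-2 and unheated N2, numbered by the titles, the replicates 1 gave 0.071 and the replicates 2 gave −0.48. These are correlations over genes, which are not independent replicates.

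Levels of different genes can be set against each other only per transcript length, and for these genes the length matters. Deposited TPM divide by an effective length from kallisto. For each transcript of these genes it was the same in every library, so it was not estimated library by library. In these TPM mtl-2 averaged 250.0 ± 5.48 in heated affl-2, 464 ± 10.9 in unheated affl-2, 374 ± 59.9 in heated N2 and 666 ± 87.7 in unheated N2 (SD, n = 3 each). ftn-2 averaged 243 ± 45.9 TPM in heated affl-2, 327 ± 11.8 in unheated affl-2, 305 ± 71.8 in heated N2 and 402 ± 30.5 in unheated N2. mtl-2 and ftn-2 overlapped in TPM in both heated groups and did not overlap in the unheated ones.

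ftn-1 followed at 3.72 ± 0.253 TPM in heated affl-2, 4.67 ± 0.723 in unheated affl-2, 7.60 ± 2.83 in heated N2 and 8.497 ± 0.924 in unheated N2. mtl-1 averaged 3.93 ± 1.57 TPM in heated affl-2, 2.90 ± 0.222 in unheated affl-2, 1.49 ± 0.768 in heated N2 and 1.74 ± 0.810 in unheated N2. cdr-1 averaged 1.17 ± 0.434 TPM in heated affl-2, 1.84 ± 0.341 in unheated affl-2, 1.07 ± 0.315 in heated N2 and 1.98 ± 0.415 in unheated N2. ftn-1 and mtl-1 overlapped in heated affl-2, and mtl-1 and cdr-1 overlapped in both N2 groups.

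The order of mtl-2 and ftn-2 turned round with the length used. The transcript of mtl-2 is 347 nt long in the tables but has an effective length of 48.5 nt, and that of mtl-1 is 373 nt with an effective length of 74.0 nt. The ferritin transcripts, 650 to 668 nt, have effective lengths of 351 to 369 nt, and that of cdr-1, 946 nt, has 647 nt. Counts per annotated kilobase were scaled by library size without the TMM correction, so the order of groups can differ from that in CPM. mtl-2 averaged 41.9 ± 3.21 in heated affl-2, 75.8 ± 4.89 in unheated affl-2, 61.7 ± 11.3 in heated N2 and 114 ± 19.6 in unheated N2. On that scale ftn-2 averaged 161 ± 38.9 in heated affl-2, 209.7 ± 6.69 in unheated affl-2, 198 ± 54.8 in heated N2 and 269 ± 29.6 in unheated N2, so ftn-2 was the higher gene in all 4 groups. Comparisons of 1 gene between groups do not use these lengths.

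**Figure D3:**
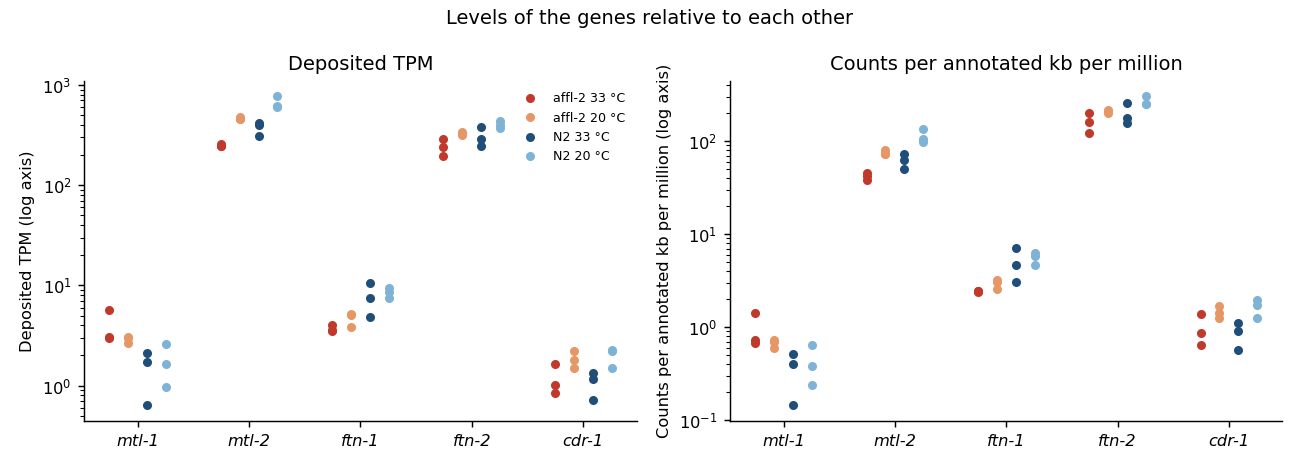
Levels of the 5 genes on log axes, as deposited TPM (left) and as depth-scaled estimated counts per annotated kilobase (right). Points are libraries, coloured by group. On the left mtl-2 lies above ftn-2 in the unheated groups and overlaps it in the heated ones, and on the right it lies below ftn-2, while ftn-1, mtl-1 and cdr-1 are far lower on both.

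Within each family 1 gene made up nearly all of the transcript. ftn-2 held 98.4 ± 0.401% of the ferritin TPM in heated affl-2, 98.6 ± 0.202% in unheated affl-2, 97.6 ± 0.382% in heated N2 and 97.9 ± 0.308% in unheated N2. mtl-2 held 98.5 ± 0.566% of the metallothionein TPM in heated affl-2, 99.4 ± 0.0453% in unheated affl-2, 99.6 ± 0.215% in heated N2 and 99.7 ± 0.0910% in unheated N2. The tables list 2 transcripts for each ferritin gene. The longer one of ftn-2 took 47.5 to 65.4% of the gene's estimated counts over the 12 libraries. For ftn-1, whose transcripts differ by few nucleotides, the division ran from 0 to 100% between libraries of 1 group, so only the gene sum was used.

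Genes whose pattern over the 12 libraries was most like that of each member were found by the root mean square difference of log2 CPM, each gene centred on its own mean, among 12755 genes. For mtl-2 these were C17F4.7 (0.151), tag-10 (0.167) and C10C5.4 (0.169), against a spread of mtl-2 about its own mean of 0.545 in log2. C17F4.7 averaged 307 CPM in heated affl-2, 418 in unheated affl-2, 504 in heated N2 and 797 in unheated N2. Because the genes were picked for likeness over these same 12 libraries, a shared order of groups follows from the choice and is no separate result. C10C5.4 averaged 65.3 CPM in unheated affl-2 and 63.5 in heated N2, an order opposite to that of mtl-2. For ftn-1 the closest genes were cpr-6, a cathepsin B-like protease gene (0.186), the glutathione S-transferase gst-10 (0.230) and the cytochrome P450 cyp-35C1 (0.243), against a spread of 0.609. cpr-6 averaged 308 CPM in heated affl-2, 326 in unheated affl-2, 647 in heated N2 and 700 in unheated N2. For ftn-2 they were frpr-5 (0.140), R11D1.3 (0.150) and scl-2 (0.153), against a spread of 0.384. For cdr-1 they were flp-7 (0.240), F19F10.3 (0.249) and cpt-6 (0.253), against a spread of 0.451, so these are the least close. mtl-1 was not compared in this way because it did not pass the filter.

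**Figure D4:**
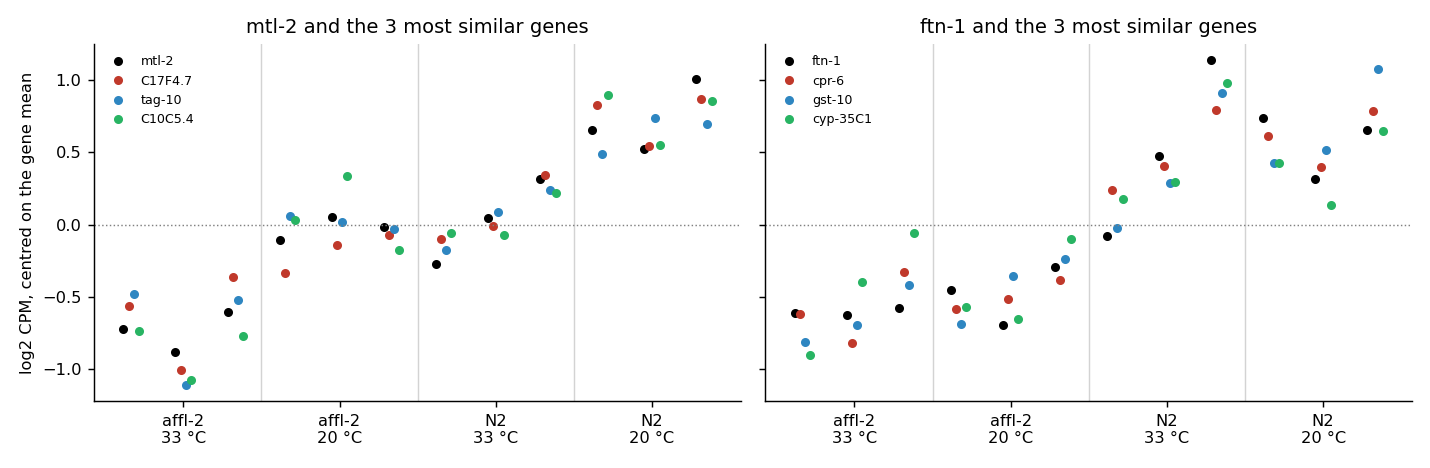
Log2 CPM centred on each gene's mean (vertical axis) in the 12 libraries, grouped by genotype and temperature, for mtl-2 (left, black) and ftn-1 (right, black) with the 3 genes most like each. Each point is a library. The mtl-2 set is lowest in heated affl-2 and highest in unheated N2, and the ftn-1 set is divided by genotype. The genes were picked for this likeness in the same libraries.

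Markers of tissues were set beside these values. Here and below, counts of markers or listed genes as lower, higher, fallen or risen hold only those that passed the adjusted threshold. The summed level of 12 intestinal markers was 3362 to 4438 CPM in heated affl-2, 4182 to 5185 in unheated affl-2, 5208 to 6387 in heated N2 and 5994 to 7180 in unheated N2, so at each temperature the mutant range lay below the N2 range. That gap came from the proteases asp-1 (log2 change −0.96 at 20 °C and −0.996 at 33 °C) and cpr-6 (−1.101 and −1.07), the only members of the list called lower in the mutant. These 2 were set aside after their values were seen. The other 10 summed to 1956 to 2542 CPM in heated affl-2, 2468 to 2955 in unheated affl-2, 2228 to 2474 in heated N2 and 2588 to 3034 in unheated N2, and the genotypes overlapped at each temperature. The medians over all 12 were 0.03 and 0.04, and at 33 °C the peptide transporter pept-1 was higher in the mutant (0.67). The lower sum in the mutant thus rests on 2 genes of the list.

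The 8 germline markers summed to 1727 to 2325 CPM in heated affl-2, 1729 to 2406 in unheated affl-2, 2485 to 2919 in heated N2 and 2541 to 2790 in unheated N2, and 5 of 8 at 20 °C and 3 of 8 at 33 °C were lower in the mutant. Of all genes tested, 7.29% were lower at 20 °C and 9.57% at 33 °C. The 7 hypodermal and cuticle markers summed to 2590 to 3045 CPM in heated affl-2, 1693 to 2542 in unheated affl-2, 4351 to 5844 in heated N2 and 3514 to 4196 in unheated N2, with 3 of 7 lower in the mutant at each temperature. Their part in the lower mtl-2 and ftn-1 levels of the mutant was not tested.

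With heat shock, 10.8% of all genes tested were lower and 10.6% higher in affl-2, and 12% and 9.52% in N2. Of the 12 intestinal markers, 3 were lower in affl-2 and 4 in N2, none was higher, and the medians were −0.26 and −0.22. pept-1 moved most (−1.06 in affl-2 and −1.35 in N2). Body wall muscle markers went the other way, with 7 of 7 higher in affl-2 and 4 of 7 in N2 and sums of 16586 to 20017 CPM in heated affl-2, 11001 to 12894 in unheated affl-2, 21772 to 22677 in heated N2 and 12227 to 16588 in unheated N2. Of 7 pharynx markers 3 were higher in each genotype and none was lower. Of 7 neuronal markers 4 were lower and 1 was higher in affl-2, and 6 were lower and 0 higher in N2. The summed hypodermal level was higher in heated than in unheated libraries in both genotypes, the opposite direction to mtl-2, although 1 of 7 members was called higher and 1 lower in affl-2 and 0 in N2. The part of these shifts in the lower mtl-2 level after heat shock was not tested.

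The 4 tested relatives of cdr-1 differed from it and from each other. cdr-4 had 28.3 ± 6.30 CPM in heated affl-2, 22.5 CPM in unheated affl-2, 86.2 ± 6.47 CPM in heated N2 and 20.5 ± 4.57 CPM in unheated N2. It rose with heat shock in N2 (2.07 ± 0.20, adjusted p = 7.57e-06), and in affl-2 its log2 change was 0.33 ± 0.20 (adjusted p = 0.26). The difference between these effects was −1.74 ± 0.28 (adjusted p = 0.00789), and at 33 °C the mutant was lower (−1.605 ± 0.20, adjusted p = 0.000131). cdr-2 fell with heat shock in affl-2 (−0.60 ± 0.16, adjusted p = 0.0141), while cdr-6 and cdr-7 passed no test. With library size alone 2 of the 4 were also lower after heat shock in N2, and 1 was higher in affl-2 than in N2 at 20 °C. The fall of cdr-2 was lost without unheated affl-2 replicate 2 or heated affl-2 replicate 2, and the replicate block, after the exchange of 2 numbers, called 2 of the 4 lower after heat shock in affl-2 and 1 higher in affl-2 than in N2 at 20 °C. cdr-3 did not pass the filter.

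Of 20 zinc transporters and regulators tested, 0 passed between affl-2 and N2 at either temperature with TMM scaling, while 5 at 20 °C and 4 at 33 °C were called higher in the mutant with library size alone. After heat shock 1 rose and 4 fell in affl-2 (0 and 5 with library size alone), and 1 rose and 3 fell in N2 (1 and 8 with library size alone). Of all genes tested, 10.6% rose and 10.8% fell in affl-2, and 9.52% rose and 12% fell in N2. The zinc exporter gene ttm-1 rose in N2 (1.02 ± 0.13, adjusted p = 4.5e-05) and in affl-2 (0.39), where the call was lost in 10 of 20 alternatives. The ZIP transporter gene zipt-2.3 fell in both (−1.67 ± 0.25 in affl-2 and −1.44 ± 0.27 in N2). hizr-1, the nuclear receptor that senses high zinc and acts on mtl-1, fell in affl-2 (−0.62 ± 0.15, adjusted p = 0.0105). Without 1 library the N2 count of lower zinc genes was 1 to 4, and 1 without unheated N2 replicate 1 or heated N2 replicate 1 or 2, while 1 to 2 were higher. Between affl-2 and N2 the 0 calls became at most 2 higher at 20 °C, and 1 higher or 1 lower at 33 °C. The replicate block, here and below with 2 numbers exchanged, gave 3 higher in affl-2, and 3 higher and 5 lower in N2. Between affl-2 and N2 it called 2 higher and 1 lower at 20 °C, and 1 higher and 3 lower at 33 °C. The list median was −0.13 in affl-2 and −0.07 in N2, against 0.03 and −0.01 over all genes tested.

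Of 20 iron and haem genes tested, 9 fell and 0 rose after heat shock in affl-2, and 7 fell and 0 rose in N2. Of all genes tested, 10.8% fell and 10.6% rose in affl-2, and 12% fell and 9.52% rose in N2. The list medians were −0.45 in affl-2 and −0.43 in N2, against 0.03 and −0.01 over all genes. In N2 the count of 7 became 4 without unheated N2 replicate 3 or without heated N2 replicate 1, and without 1 library it was 7 to 10 in affl-2, where 0 or 1 rose. The genes that fell include the haem-pathway gene hrg-7 (−1.56 ± 0.15 in each genotype), the hypoxia-pathway gene rhy-1 (−2.11 ± 0.17 in affl-2 and −1.64 ± 0.16 in N2) and the ferroportin fpn-1.2 (−1.91 ± 0.30 in affl-2 and −1.52 ± 0.31 in N2). Between genotypes 6.69% of all genes tested were higher and 7.29% lower in affl-2 at 20 °C, and 10.1% and 9.57% at 33 °C. Of this list, 2 rose and 2 fell in affl-2 at 20 °C, and 3 rose and 4 fell at 33 °C. With library size alone the counts were 5 higher and 1 lower at 20 °C, and 7 higher and 1 lower at 33 °C. These counts rest on single libraries. Without 1 library they were 0 to 3 higher and 1 to 2 lower at 20 °C, with 0 higher without any 1 of the 3 unheated N2 libraries, heated N2 replicate 1 or unheated affl-2 replicate 2, and 1 lower without any 1 of the 6 unheated libraries. The 2 higher also became 1 without heated N2 replicate 2, unheated affl-2 replicate 1 or heated affl-2 replicate 1 or 3. At 33 °C they were 1 to 6 higher and 2 to 4 lower. There 1 was higher without heated N2 replicate 1 or 2 or heated affl-2 replicate 1 or 3, 6 were higher without heated affl-2 replicate 2, and 2 were lower without heated N2 replicate 1 or 3 or heated affl-2 replicate 1 or 3. The replicate block gave 5 higher at 33 °C. The lysosomal haem transporter hrg-1 fell in the mutant at both temperatures (−0.72 ± 0.15 at 20 °C and −0.97 ± 0.15 at 33 °C). aco-1, the cytosolic aconitase related to iron regulatory proteins, rose at 20 °C (0.43 ± 0.13, adjusted p = 0.0427), a call lost in 8 of 20 alternatives. List medians were 0.14 at 20 °C and 0.13 at 33 °C, against −0.002 and 0.04 over all genes.

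Of 19 genes tested of the response to cadmium and other heavy metals, 3 rose and 4 fell in affl-2 against N2 at 20 °C, and 3 rose and 6 fell at 33 °C. Of all genes tested, 6.69% were higher and 7.29% lower at 20 °C, and 10.1% and 9.57% at 33 °C. numr-1 and numr-2, near-identical copies whose reads cannot be divided, hold the same values, and counted as 1 gene they leave 3 higher and 3 lower of 18 at 20 °C and 3 higher and 5 lower at 33 °C. The 4 lower at 20 °C became 2 without unheated N2 replicate 1 or 3 or unheated affl-2 replicate 1 or 2, and the 3 higher at 33 °C became 1 without heated affl-2 replicate 1. With library size alone the counts were 8 higher and 4 lower at 20 °C, and 7 higher and 5 lower at 33 °C. The arsenite-inducible aip-1 averaged 111 ± 9.84 CPM in heated affl-2, 26.5 CPM in unheated affl-2, 407 ± 58.6 CPM in heated N2 and 32.6 CPM in unheated N2, and its heat shock effects differed by −1.575 ± 0.20 (adjusted p = 0.000923). The glutathione S-transferase gst-4 was lower in the mutant (−0.93 ± 0.15 at 20 °C and −1.48 ± 0.16 at 33 °C), as was the transporter pgp-5 (−1.68 ± 0.24 at 20 °C and −1.52 ± 0.25 at 33 °C). numr-1 and numr-2 fell in heated affl-2 against heated N2 (−3.14 ± 0.42 for either). After heat shock 10.6% of all genes tested rose and 10.8% fell in affl-2, and 9.52% rose and 12% fell in N2. Of this list, 2 rose and 3 fell in affl-2 (2 and 5 with library size alone), and 6 rose and 1 fell in N2 (4 and 7 with library size alone), or 5 and 1 with the numr genes as 1. The 3 lower in affl-2 became 0 without unheated affl-2 replicate 2 and 1 without heated affl-2 replicate 3, and the 2 higher became 4 without unheated affl-2 replicate 3. The 1 lower in N2 was 0 without unheated N2 replicate 1 or 3 or heated N2 replicate 1, 2 without heated N2 replicate 3, unheated affl-2 replicate 2 or heated affl-2 replicate 2, and 4 with the replicate block. List medians stayed between −0.05 and 0.13.

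Of 11 tested genes listed as possible regulators of the metal-handling genes, 0 passed between affl-2 and N2 at 20 °C (5 higher with library size alone). At 33 °C pqm-1, a zinc finger factor of the insulin pathway, was lower in the mutant (−0.51 ± 0.15, adjusted p = 0.0286), a call lost in 6 of 20 alternatives, and with library size alone 5 of the 11 were higher and 0 lower. After heat shock 10.6% of all genes tested rose and 10.8% fell in affl-2, and 9.52% rose and 12% fell in N2. Of the 11 regulators, 3 rose and 2 fell in affl-2 (2 and 3 with library size alone), and 4 rose and 2 fell in N2 (3 and 4 with library size alone, and 4 and 1 with DESeq2's size factors in edgeR). The 2 lower in N2 were elt-2 and elt-7, both GATA factors of the intestine, and elt-7 (−0.42 ± 0.14, adjusted p = 0.0456) lost its call in 14 of 20 alternatives. That count became 0 without unheated N2 replicate 1 or 3 or heated N2 replicate 1, was 1 without any of 6 other libraries, reached 3 at most without 1 library, and was 4 with the replicate block. Between affl-2 and N2, 2 regulators were higher at 20 °C without unheated N2 replicate 1 or heated affl-2 replicate 2, and 2 with the block at each temperature. pqm-1 rose in both genotypes (0.95 ± 0.15 in affl-2 and 1.87 ± 0.16 in N2), and elt-2, the intestinal GATA factor, fell (−0.53 ± 0.14 in each).

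Of 12 other DAF-16 targets tested, 6 fell and 0 rose in affl-2 against N2 at 20 °C, and 5 fell and 0 rose at 33 °C. The list does not record whether DAF-16 raises or lowers each gene, and DAF-16 activity was not tested. With library size alone 2 were higher at 20 °C and 3 at 33 °C, with 5 lower at each, and with RLE scaling, the size factors of DESeq2, 1 was higher and 6 lower at 20 °C. The glyoxylate-cycle gene icl-1 (−1.50 ± 0.13 at 20 °C and −2.08 ± 0.14 at 33 °C), dod-17 (−1.19 ± 0.15 and −1.05 ± 0.15) and dod-3 (−2.97 ± 0.43 and −2.70 ± 0.41) were the members with the smallest adjusted p. The list medians were −0.51 at 20 °C and −0.29 at 33 °C, against −0.002 and 0.04 over all genes tested. After heat shock 10.6% of all genes tested rose and 10.8% fell in affl-2, and 9.52% rose and 12% fell in N2. Of this list, 1 rose and 2 fell in each genotype, with 5 lower in N2 by library size alone. The 2 lower in N2 became 1 or 0 without any 1 of the 6 N2 libraries, 0 being the count without unheated N2 replicate 3 or heated N2 replicate 2. In affl-2 they became 0 without heated affl-2 replicate 2, and 1 without unheated affl-2 replicate 1 or 2 or heated affl-2 replicate 1. The counts of lower genes between affl-2 and N2 ran over a narrower range, 5 to 7 at 20 °C and 5 to 6 at 33 °C without 1 library, where 7.29% and 9.57% of all genes were lower. The 0 higher became at most 2 at each temperature without 1 library, and with the replicate block 2 were higher at 20 °C, 1 at 33 °C and 2 after heat shock in N2.

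**Figure D5:**
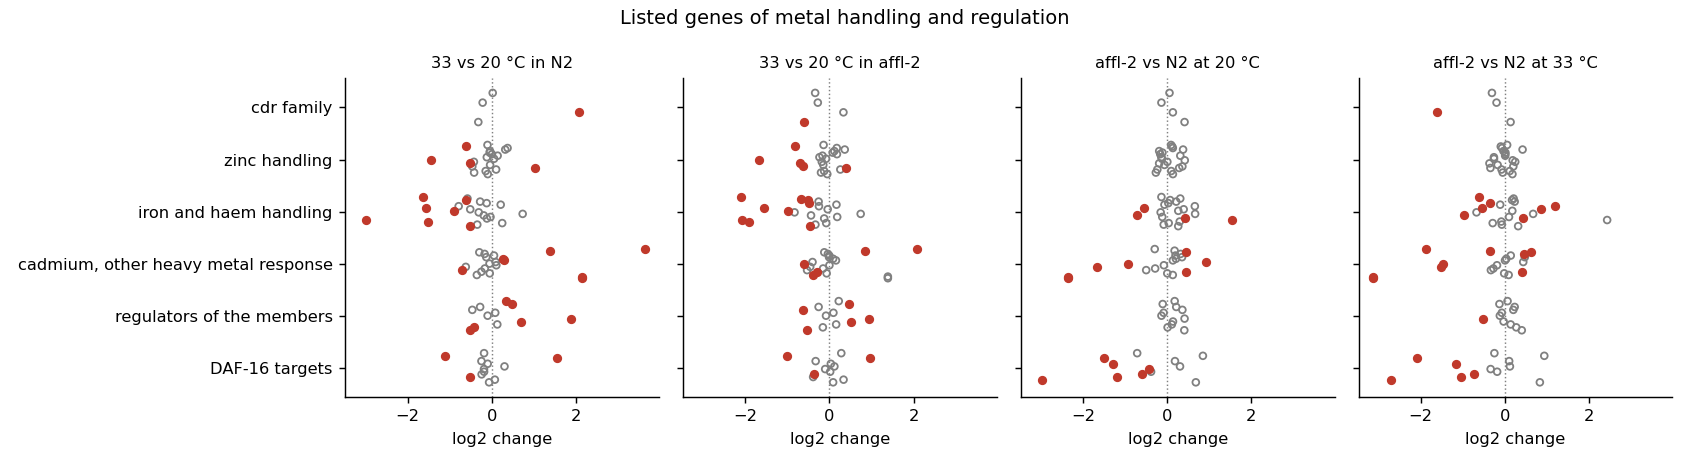
Log2 change (horizontal axis) of each tested gene of the 6 lists, 1 row per list and 1 panel per comparison. Each point is a gene, filled where it passed at an adjusted p below 0.05 and open where it did not, with vertical offsets only to separate points. DAF-16 targets that passed between affl-2 and N2 all lie below 0, and the iron and haem genes that passed after heat shock all lie below 0.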

How the data were processed

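The deposited tables, 1 per library, hold estimated counts and TPM (both made by the authors with kallisto, whose version the labels do not give), with transcript lengths and effective lengths, for 35862 transcripts. Per the submitters' processing notes, base calls were converted with bcl2fastq 1.8.4 and the build was WBcel235. The labels name a library kit that does not mark strand.

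Here estimated counts were summed per gene, rounded and tested in edgeR 4.0.16 (R 4.3.3) with TMM scaling, filterByExpr (minimum count 10, 15386 genes tested, 6624 set aside) and 1 robust quasi-likelihood fit with a mean for each of the 4 groups (12 libraries, residual df of 8, common BCV 0.147). DESeq2 1.42.0 was an alternative. Adjustment is Benjamini-Hochberg over all genes tested. Scripts were tested on simulated data with known changes. Coordinates and symbols are from Ensembl release 115, which matched 21842 of 22010 genes. The unmatched genes held 0.0544 to 0.0839% of a library's counts.

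The 5 genes and the lists were chosen with earlier results of these data known. Named are the 5 genes, affl-2, hsf-1, the 3 genes most like each member (average log2 CPM of at least 1), cdr genes, and of each list up to 3 genes per comparison with the smallest adjusted p among those that passed. aco-1, elt-2 and elt-7, outside that rule, and the marker genes were named after their values were seen. The names cdr-5, asr-1, dod-8, tts-1 and unc-17 matched no symbol. Between affl-2 and N2, pharynx, body wall muscle and neuron markers had 0 or 1 of 7 members called in either direction at each temperature. Promoter and protein sequences were not analysed here.

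The titles number the libraries 1 to 3 in each group, and whether numbers pair libraries was read from the correlations of their deviations from the group means. Every same-numbered pair was over 0.1 for heat shock in N2 (0.36 to 0.43) and for affl-2 against N2 at 33 °C (0.18 to 0.51). For heat shock in N2, pairs of unlike numbers gave −0.34 to −0.12. At 33 °C heated N2 replicate 1 and heated affl-2 replicate 2 gave 0.192, above the 0.182 of the replicates 2. The numbers thus separate the pairs in N2 but not fully at 33 °C. With 3 same-numbered pairs per comparison, a pairing is not established. For unheated affl-2 the labels of numbers 1 and 2 disagree with their tables. With those exchanged, heat shock in affl-2 gave 0.27 to 0.42 and affl-2 against N2 at 20 °C 0.0926 to 0.38, and by the titles −0.26 to 0.37 and −0.48 to 0.0926. After the exchange, libraries of other numbers gave −0.51 to 0.25. The fit reported has no block, and blocked values stand beside many of the results whose calls or counts they change, not all.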

Additional observations from a re-analysis of the deposited data

Results flagged for a closer look

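A pair of listed genes outside the 5 had heat shock effects that differed between the genotypes by the interaction test. They are 1 of 4 tested cdr genes and 1 of 19 tested genes of the heavy metal list, and 0 passed in the other lists. Of all genes tested, 0.669% were lower and 0.0455% higher in this test. The lists were chosen with earlier results of these data known. For cdr-4, a relative of cdr-1, the difference of the heat shock effects, affl-2 minus N2, was −1.74 (log2, adjusted p = 0.00789), from log2 changes of 0.33 in affl-2 and 2.07 in N2. For aip-1, an arsenite-inducible gene, it was −1.575 (adjusted p = 0.000923), from log2 changes of 2.07 in affl-2 and 3.64 in N2. cdr-1 itself gave 0.29 in the same test (95% interval −0.71 to 1.29).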

How the results depend on the processing

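Of 490 alternatives over the 5 genes and 5 comparisons, 450 kept the direction and the side of the threshold, 3 lost a call, 9 gained one and 28 turned a direction, none of these last in a called value; the cause was not tested. mtl-2 kept its 4 calls throughout. With scaling by library size alone, the log2 change of ftn-1 with heat shock in N2 was −0.17, that of cdr-1 in the same comparison −0.92 (adjusted p = 0.0463, making 2 genes called lower), that of cdr-1 between affl-2 and N2 at 33 °C 0.16, and the mtl-2 interaction 0.026. With a replicate block by the numbers of the titles, ftn-1 with heat shock in N2 gave −0.020, and ftn-2 between affl-2 and N2 passed at 20 °C (−0.53, adjusted p = 0.0265) and 33 °C (−0.52, adjusted p = 0.0241). With a replicate block in which unheated affl-2 numbers 1 and 2 were exchanged, because their labels and tables disagree, these were −0.026, −0.53 (adjusted p = 0.0243) and −0.52 (adjusted p = 0.0206). The block changed no other call of the 5 genes. Offsets for transcript length gave −0.012 for ftn-1 with heat shock in N2. ftn-2 at 20 °C passed when only the compared libraries were fitted (−0.52, adjusted p = 0.0116), and at 33 °C with DESeq2 (−0.54, adjusted p = 0.0445). The ftn-2 interaction was −0.012 without the filter and −0.024 with RLE factors or DESeq2. Per annotated kilobase, the log2 ratio of mtl-2 to ftn-2 was −1.91 in heated affl-2, −1.47 in unheated affl-2, −1.67 in heated N2 and −1.25 in unheated N2, that of ftn-1 to mtl-1 was 1.46 in heated affl-2, and that of mtl-1 to cdr-1 was −0.045 in heated affl-2, −1.12 in unheated affl-2 and −1.44 in heated N2, each with the opposite sign in TPM.

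Leaving out each library in turn (a group then has 2) moved ftn-1 over −1.21 to −0.96 at 20 °C and −1.4997 to −0.84 at 33 °C between affl-2 and N2, and over −0.37 to 0.27 with heat shock in N2. ftn-2 ran from −0.60 to −0.44 at 20 °C, passing without heated N2 replicate 3 (adjusted p = 0.0461), and from −0.72 to −0.23 at 33 °C, passing without heated affl-2 replicate 3 (adjusted p = 0.0472). cdr-1 at 33 °C ran from −0.42 to 0.22 and mtl-1 with heat shock in N2 from −0.43 to 0.41. Interactions ran from −0.17 to 0.13 (mtl-2), −0.40 to 0.22 (ftn-1), −0.18 to 0.28 (ftn-2) and −0.068 to 0.55 (cdr-1). Genes of the 5 called lower between affl-2 and N2 at 20 °C numbered 1 to 3.

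Over all genes, library size alone called 3386 at 20 °C and 5699 at 33 °C between affl-2 and N2, against 2150 and 3034, and the exchanged block 3604 and 5155. The share of calls that were lower then became 19.2% at 20 °C and 14.6% at 33 °C with library size alone, against 52.1% and 48.5%, and with heat shock 73.9% in affl-2 and 79.3% in N2, against 50.4% and 55.8%. Interaction calls were 213 with DESeq2 and 221 with the exchanged block, against 110. Leaving out 1 library gave 1220 to 2550 calls at 20 °C and 1475 to 3897 at 33 °C. The calls fell by more than 1.5 times without unheated N2 replicate 1 or 3 or unheated affl-2 replicate 2 at 20 °C, and without heated N2 replicate 1 or 2 or heated affl-2 replicate 1 or 3 at 33 °C. Listed genes that passed kept their direction in all 1935 alternatives and lost the call in 213.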
